A study of Homo sapiens with 15 samples.

Results

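APOA1, THBD and CFD are followed here across 5 groups of MV4-11 cells treated for 24 h with a vehicle or with a compound described in the labels as a BET inhibitor. They are 3 of 14812 genes named on the arrays, taken by symbol from the platform annotation, and each was read by 1 feature. MV4-11 is an established human acute myeloid leukemia line that grows in suspension. The groups were the vehicle DMSO, the compounds DW71177, DW71374 and OTX015 (each at 300 nM), and RVX208 (at 5 uM). Each group held 3 arrays, 15 in all, from wells of the same line, so every group shares its genotype. Nothing says that the wells were separate cultures, so a p-value here reflects the spread among these arrays alone, possibly technical.

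BET proteins bind acetylated lysines on histones and help transcription elongate, and BET inhibitors displace them. OTX015 (birabresib) binds both bromodomains of these proteins, whereas RVX208 (apabetalone) prefers the second. RVX208 was developed for its effect on APOA1 in liver cells and has been studied for effects on complement and coagulation genes. APOA1 encodes the main protein of high-density lipoprotein, which carries cholesterol away from tissues, and is made mainly in liver and intestine. THBD encodes thrombomodulin, a surface receptor of endothelial cells and some myeloid cells that binds thrombin and turns it toward activating the anticoagulant protein C. CFD encodes complement factor D (adipsin), a serine protease secreted by fat cells and by monocytes and macrophages. It cleaves factor B bound to C3b and so forms the C3 convertase of the alternative complement pathway.

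Of the 3 genes, the RefSeq promoter table (GRCh38.p14) held CFD. Its promoter is shown because CFD differed between the groups. Those of CFP, F2RL3 and PLTP stand beside it because these complement, coagulation and lipoprotein genes also differed, CFP and F2RL3 downward and PLTP upward. Each is the 250 bases before the annotated start listed first for the gene, 5′ to 3′ on the gene's strand. Whether that is the gene's main start was not checked, so a window, that of PLTP included, may lie within the gene. The CFD window is chr19:859414-859663 (plus strand), that of CFP chrX:47629931-47630180 (minus), that of F2RL3 chr19:16888749-16888998 (plus) and that of PLTP chr20:45910995-45911244 (minus). Capitals mark matches on either strand to the TATA box TATAAA, its variant ATAAAA (which can overlap it), the GC box core GGGCGG, the CCAAT box, the E-box core CANNTG and the AP-1 site TGANTCA.
CFD: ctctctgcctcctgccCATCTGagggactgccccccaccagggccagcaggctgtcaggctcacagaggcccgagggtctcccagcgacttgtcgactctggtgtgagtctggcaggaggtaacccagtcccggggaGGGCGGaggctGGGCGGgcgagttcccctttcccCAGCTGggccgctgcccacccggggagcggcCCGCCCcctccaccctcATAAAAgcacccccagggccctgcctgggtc
CFP: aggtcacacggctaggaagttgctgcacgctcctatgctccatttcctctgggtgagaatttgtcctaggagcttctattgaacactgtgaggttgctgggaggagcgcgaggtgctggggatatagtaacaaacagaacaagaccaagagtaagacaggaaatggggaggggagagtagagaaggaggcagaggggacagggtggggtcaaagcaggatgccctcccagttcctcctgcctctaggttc
F2RL3: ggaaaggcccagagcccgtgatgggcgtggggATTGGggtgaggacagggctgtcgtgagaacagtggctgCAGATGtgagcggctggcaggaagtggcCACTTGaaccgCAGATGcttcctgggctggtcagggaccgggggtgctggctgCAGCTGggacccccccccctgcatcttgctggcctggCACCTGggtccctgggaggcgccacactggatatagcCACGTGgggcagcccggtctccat
PLTP: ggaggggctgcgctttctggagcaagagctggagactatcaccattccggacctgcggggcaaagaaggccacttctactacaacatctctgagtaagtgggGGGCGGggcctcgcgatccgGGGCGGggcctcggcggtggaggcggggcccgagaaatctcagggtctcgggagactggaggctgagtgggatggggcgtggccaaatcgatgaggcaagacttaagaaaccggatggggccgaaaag

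The CFD window had a GC content of 70.8% and held ATAAAA, whose match begins 31 bases upstream of the start, at the usual distance of a TATA box. Of 27303 windows of the same length, 15.2% held ATAAAA and 11.1% the stricter TATAAA, which the CFD window lacked. It also held GGGCGG at 3 places, and 42.3% of windows held at least 1. CANNTG stood at 2 places in CFD and at 6 in F2RL3, against 62.2% of windows with any. The F2RL3 place nearest the start read CACGTG, a subset of CANNTG found in 6.49% of windows. F2RL3 also held CCAAT on the opposite strand, as did 33.0% of windows on either strand. The PLTP window held GGGCGG at 2 places, and the CFP window held 0 matches to any of these motifs or to TGANTCA (6.60% of windows). These are matches of letters and no measurement of binding.

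THBD was lower with 3 of the 4 compounds. On the deposited log2 scale the DMSO arrays read 7.62, 7.80 and 7.82, and the DW71374 arrays 7.76, 7.70 and 7.80. With RVX208 the arrays read 7.06, 6.98 and 6.90, with DW71177 they read 6.11, 6.33 and 6.29, and with OTX015 they read 6.01, 6.09 and 5.80. The DMSO and DW71374 arrays overlapped fully, and the group means with RVX208, DW71177 and OTX015 were lower, at 6.98, 6.24 and 5.97. A signal is a level for all cells of a well, so fewer cells making a transcript and less transcript per cell cannot be told apart.

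The THBD difference from DMSO was -1.78 ± 0.088 with OTX015 (log2 difference of group means ± standard error of the fit, n = 3 and 3), a 3.43-fold fall (95% interval 3.01- to 3.91-fold, limma adjusted p = 7.5e-09). With DW71177 at the same dose it was -1.50 ± 0.088, a 2.83-fold fall (limma adjusted p = 8.2e-08). RVX208, at its higher dose, gave -0.77 ± 0.088, a 1.70-fold fall (limma adjusted p = 0.00019). DW71374 gave 0.01 ± 0.088 (interval -0.18 to 0.20), not called (limma adjusted p = 0.997). The DW71374 interval allowed at most a change of 1.15-fold upward or 1.13-fold downward. The 3 called falls held when any single array of either group was left out.

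CFD was higher with the same 3 compounds. The DMSO arrays read 9.81, 9.92 and 9.97 on the log2 scale, and the DW71374 arrays 9.91, 9.94 and 9.81. RVX208 gave 10.24, 10.19 and 10.16, DW71177 gave 10.54, 10.60 and 10.66, and OTX015 gave 10.78, 10.71 and 10.78. As for THBD, the DMSO and DW71374 arrays overlapped. The group means with RVX208, DW71177 and OTX015 were here higher, at 10.20, 10.60 and 10.76.

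The CFD difference from DMSO was 0.86 ± 0.062 with OTX015, a 1.81-fold rise (95% interval 1.65- to 1.98-fold, n = 3 and 3, limma adjusted p = 2.6e-07). DW71177 gave 0.70 ± 0.062, a 1.63-fold rise (limma adjusted p = 3.2e-06). RVX208 gave 0.30 ± 0.062, a 1.23-fold rise (interval 1.12- to 1.35-fold, limma adjusted p = 0.011). This smallest call was lost at an adjusted p of 0.056 without DMSO replicate 1, at 0.051 without RVX208 replicate 1, and at 0.058 in a fit of these 6 arrays alone. DW71374 gave -0.02 ± 0.062 (interval -0.15 to 0.11, limma adjusted p = 0.99), so a change beyond 1.11-fold downward or 1.08-fold upward lay outside its interval.

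**Figure D1:**
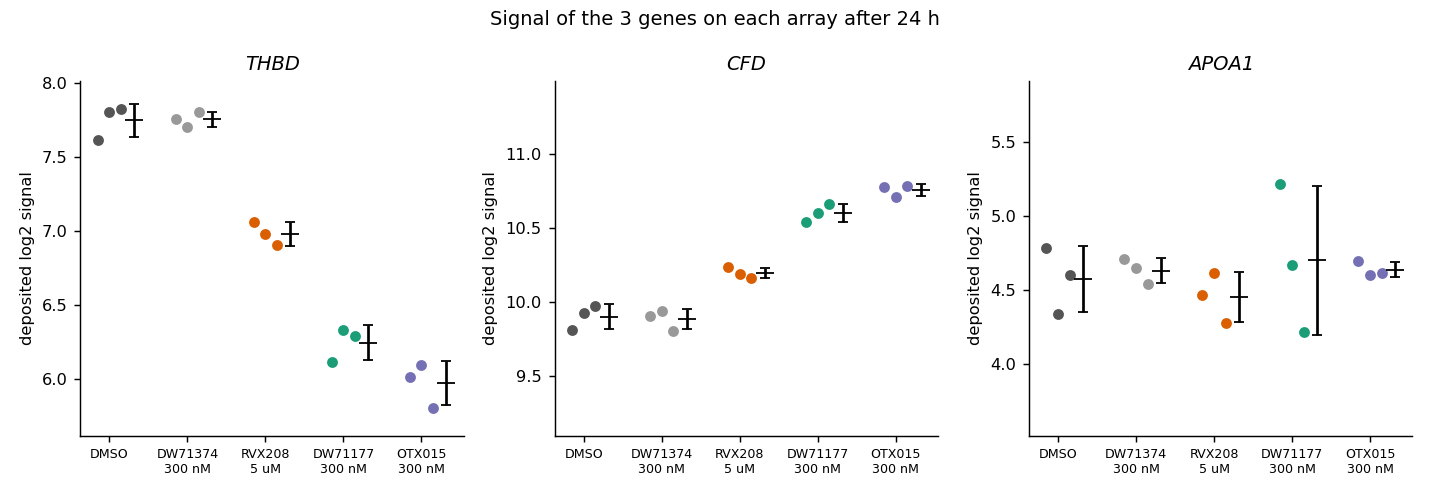
Deposited log2 signal (vertical axis, 2.4 log2 units in each panel) of THBD, CFD and APOA1 on the 3 arrays of each group (points), with the group mean and SD (bar and whiskers). THBD stepped down from 7.75 in DMSO to 5.97 with OTX015 and CFD stepped up from 9.90 to 10.76, while the APOA1 arrays of all groups overlapped.

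APOA1 passed no test with any compound. Its arrays read 4.78, 4.34 and 4.60 in DMSO, 4.70, 4.64 and 4.54 with DW71374, and 4.46, 4.61 and 4.27 with RVX208. With DW71177 they read 5.21, 4.67 and 4.21, and with OTX015 4.69, 4.60 and 4.61. The lowest and the highest of the 15 arrays were both DW71177 arrays, and all groups overlapped.

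The APOA1 difference from DMSO with RVX208 was -0.13 ± 0.19 (95% interval -0.53 to 0.28, n = 3 and 3, limma adjusted p = 0.8). That interval reached from 1.45-fold lower to 1.22-fold higher. OTX015 gave 0.06 ± 0.19 (interval -0.35 to 0.47), DW71177 gave 0.12 ± 0.19 (-0.28 to 0.53) and DW71374 gave 0.06 ± 0.19 (-0.35 to 0.46), with limma adjusted p of 0.88, 0.75 and 0.99. Rises up to 1.38-, 1.45- and 1.38-fold thus lay inside these intervals. The residual SD of APOA1 within groups was 0.261, larger than that of 95.2% of genes, against 0.107 for THBD, 0.0611 for CFD and a median of 0.124. Group means of 4.45 to 4.70 lay not far above the array medians of 3.72 to 3.79. No background level was given, so the deposited values do not show whether this signal was above background. Without single arrays the DW71177 difference ranged from -0.13 to 0.37, that of OTX015 from -0.06 to 0.17, that of RVX208 from -0.24 to -0.02 and that of DW71374 from -0.06 to 0.16, none of them called.

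With OTX015, 2 of the 3 genes were called, where limma called 25.7% of all genes. With DW71177 the same 2 were called, against a background of 19.8%. With RVX208 they were again 2 of 3, against 6.52%. With DW71374, 0 of 3 were called and 0% of all genes, of which 686 had an unadjusted p under 0.05. The 4 comparisons share the DMSO arrays and are therefore not independent.

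The 3 compounds used at 300 nM were set against each other in 3 pairs. THBD was 0.28 higher with DW71177 than with OTX015 (interval 0.09 to 0.46, n = 3 and 3), a difference not called (limma adjusted p = 0.16). The lowest DW71177 array, at 6.11, lay just above the highest OTX015 array, at 6.09, and the arrays of 10.5% of all genes were separated in that direction. Limma called 1.26% of all genes in this pair. Restricted to genes with a mean signal of at least 5, the adjusted p for THBD was 0.0497, which just passes. CFD was 0.15 lower with DW71177 than with OTX015 (interval -0.29 to -0.02, limma adjusted p = 0.28). Its arrays did not overlap either, as was the case downward for 5.02% of genes. APOA1 differed by 0.06 (interval -0.34 to 0.47, limma adjusted p = 0.93).

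DW71374 stood apart from both other compounds of that dose. THBD was 1.79 ± 0.088 higher with DW71374 than with OTX015, or 3.45-fold (interval 1.60 to 1.97 on the log2 scale, limma adjusted p = 7.1e-09). CFD was 0.87 ± 0.062 lower (interval -1.01 to -0.74, limma adjusted p = 2e-07). Against DW71374, DW71177 gave THBD at -1.51 ± 0.088 (limma adjusted p = 8.6e-08) and CFD at 0.72 ± 0.062 (limma adjusted p = 2.5e-06). APOA1 differed by -0.01 (interval -0.41 to 0.40) and 0.07 (-0.34 to 0.47) in these pairs. Thus 2 of 3 genes were called in each, where 25.2% and 19.5% of all genes were. RVX208 was used at another dose, so its values stand beside the others untested. In order of level, THBD read 7.76 in DW71374, 7.75 in DMSO, 6.98 in RVX208, 6.24 in DW71177 and 5.97 in OTX015. CFD ran the other way, from 9.88 and 9.90 to 10.20, 10.60 and 10.76. In both orders DMSO and DW71374, and DW71177 and OTX015, were neighbours whose difference did not pass the test.

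**Figure D2:**
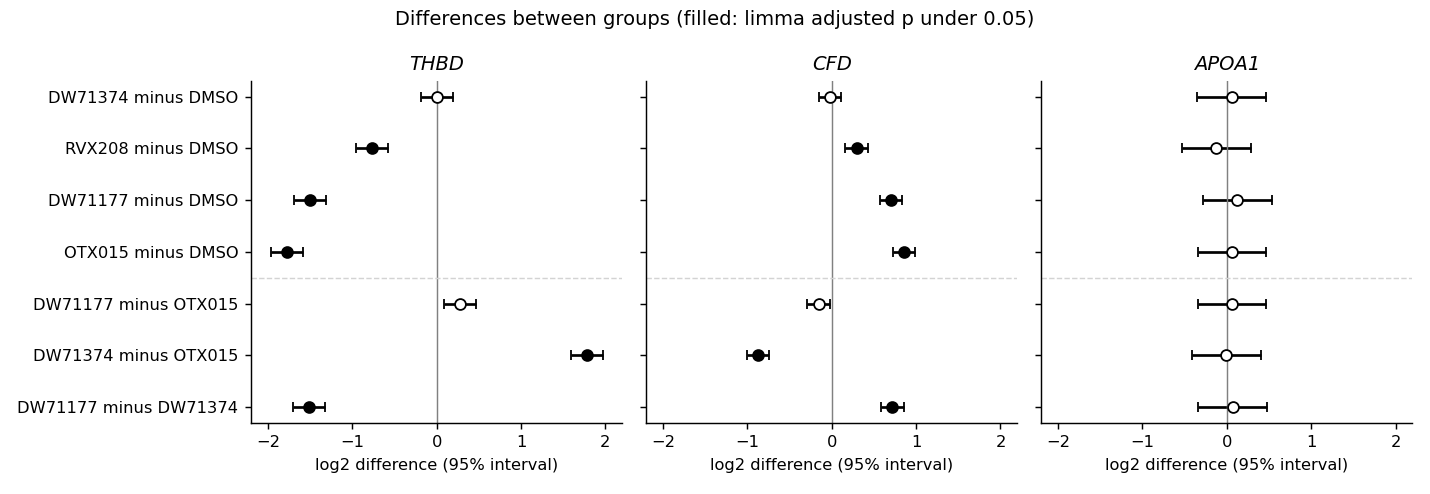
Log2 differences of group means (horizontal axis) with 95% intervals from the limma fit for THBD, CFD and APOA1, with 4 comparisons against DMSO above the dashed line and 3 pairs at 300 nM below it. Filled points passed the test: THBD at -1.78, -1.50 and -0.77 and CFD at 0.86, 0.70 and 0.30 against DMSO, whereas every APOA1 interval spans 0.

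Around THBD, 27 of 48 listed coagulation and fibrinolysis genes were measured. THBD itself is among them and is counted in the falls with OTX015, DW71177 and RVX208. With OTX015 3 rose and 3 fell, with DW71177 3 and 3, with RVX208 2 and 2, and with DW71374 0 changed. The list medians were 0.05, 0.01, 0.04 and 0.01, beside medians of 0.00, -0.01, -0.01 and -0.01 over all genes. Over all genes limma called 11.2% higher and 14.5% lower with OTX015, 9.95% and 9.88% with DW71177, and 3.41% and 3.11% with RVX208. The RVX208 count of 4 dropped to 1 or 2 in each of the 6 fits that omitted an array of either group.

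Of 3 measured genes for thrombin receptors 1 fell, 1 rose and 1 was not called. F2RL3, which encodes protease-activated receptor 4, read 8.33 ± 0.058 in DMSO (mean log2 signal ± SD, n = 3), 8.45 ± 0.080 with DW71374, 8.08 ± 0.036 with RVX208, 7.56 ± 0.051 with DW71177 and 7.07 ± 0.084 with OTX015. It fell 2.40-fold with OTX015 (-1.27 ± 0.063, limma adjusted p = 8.7e-09) and 1.70-fold with DW71177 (-0.77 ± 0.063, limma adjusted p = 1.9e-06). The 1.19-fold fall with RVX208 (limma adjusted p = 0.033) was kept in only 1 of 6 fits without a single array. Between DW71177 and OTX015, F2RL3 differed by 0.50 ± 0.063 (limma adjusted p = 0.0035), a call lost when the arrays of these groups were fitted alone.

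F2R, which encodes protease-activated receptor 1, read 6.31 ± 0.096 in DMSO and 6.31 ± 0.096 with DW71374. It read 6.58 ± 0.107 with RVX208, 7.02 ± 0.088 with DW71177 and 6.78 ± 0.032 with OTX015. The rise was 1.64-fold with DW71177 (0.71 ± 0.076, limma adjusted p = 1.6e-05) and 1.39-fold with OTX015 (0.47 ± 0.076, limma adjusted p = 0.00032). With RVX208 the difference of 0.27 ± 0.076 narrowly missed the threshold (limma adjusted p = 0.0501). Of 9 other settings, 5 called it, as did 1 of 6 fits without a single array. F2R was highest with DW71177, although its difference from OTX015 of 0.24 was not called (interval 0.08 to 0.41, limma adjusted p = 0.15). F2RL2, which encodes protease-activated receptor 3, had group means of 3.81 to 4.08 and was called with no compound. These means lay just above the array medians of 3.72 to 3.79, which limits what this absence of a call says.

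ANXA5 encodes annexin A5, which covers exposed phosphatidylserine and is anticoagulant in vitro. It rose 1.62-fold with OTX015, 1.42-fold with DW71177 and 1.26-fold with RVX208 (limma adjusted p = 3.5e-05, 0.00082 and 0.035), and the last call was kept in 1 of 6 fits without a single array. FGL2, a membrane prothrombinase, was called higher with RVX208 at 0.19 ± 0.048 (limma adjusted p = 0.034) and in none of the 6 such fits. With OTX015 it read -0.12 ± 0.048, not called. PROC, the zymogen of protein C that thrombomodulin helps activate, had group means of 4.21 to 4.32 and passed no test. The remaining calls, named after their values were seen, were GAS6 (lower) and FGG (higher) with OTX015 and ANXA2 (lower) and GGCX (higher) with DW71177. Without single arrays these were called in 2, 1, 4 and 2 of 6 fits, in that order. FGG, a fibrinogen chain, had group means of 1.61 to 1.87, below every array median. PROCR and F3 were not analysed here.

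Around CFD, 28 of 50 listed complement genes were measured, CFD itself among them. With OTX015 3 rose and 1 fell, with DW71177 3 and 1, with RVX208 2 and 0, and with DW71374 0 changed. The genes that rose were CFD itself, C5 and CLU with OTX015 and DW71177, and CFD and C5 with RVX208. Over all genes limma called 11.2% higher and 14.5% lower with OTX015, 9.95% and 9.88% with DW71177, and 3.41% and 3.11% with RVX208, so the shares that rose with OTX015 and DW71177 were near that background. The medians were 0.02, -0.04, -0.03 and -0.03, beside 0.00, -0.01, -0.01 and -0.01 over all genes. CFP, which encodes properdin, the stabiliser of the alternative pathway convertase, fell while CFD rose. It read 7.41, 7.61 and 7.65 in DMSO, 7.04 to 7.10 with DW71177 and 6.50 to 6.68 with OTX015. The fall was 1.93-fold with OTX015 (-0.95 ± 0.072, limma adjusted p = 3.8e-07) and 1.40-fold with DW71177 (-0.48 ± 0.072, limma adjusted p = 0.00024). RVX208 gave -0.14 ± 0.072 (limma adjusted p = 0.31), not called. CFP was higher with DW71177 than with OTX015 by 0.46 ± 0.072 (limma adjusted p = 0.0089). This call and that of F2RL3 in the same pair were lost when the 6 arrays were fitted alone, where limma called 1 gene in all.

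C5, the precursor of the C5a peptide and of the membrane attack complex, rose 1.40-fold with OTX015, 1.28-fold with DW71177 and 1.29-fold with RVX208 (limma adjusted p = 0.00043, 0.0056 and 0.015). The RVX208 call was lost without DMSO replicate 2 or RVX208 replicate 2, at adjusted p of up to 0.071. CLU, which encodes clusterin, an inhibitor of the terminal complex, rose 2.23-fold with OTX015 (1.16 ± 0.17, limma adjusted p = 0.00016) and 1.92-fold with DW71177 (0.94 ± 0.17, limma adjusted p = 0.0012). Its DMSO mean of 4.34 was not far above the array medians, and with no background level given the fitted folds carry that limit. The convertase components of the pathway passed no test. CFB, the substrate of factor D, read 4.32 to 4.47 over the group means, and C3 read 3.94 to 4.06. Both lay not far above the array medians of 3.72 to 3.79, so their lack of calls carries the same limit. C4A and C4B are near-identical and their features cannot be taken as separate. The RVX208 count of 2 dropped to 1 without DMSO replicate 1 or 2 or RVX208 replicate 1 or 2.

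Around APOA1, 24 of 42 listed lipoprotein genes were measured, APOA1 itself among them. With OTX015 1 rose and 5 fell, with DW71177 1 and 4, with RVX208 1 and 2, and with DW71374 0 changed. Over all genes the shares called were 11.2% higher and 14.5% lower, 9.95% and 9.88%, and 3.41% and 3.11% with the same compounds. The medians were -0.01, 0.02, -0.04 and -0.02, beside 0.00, -0.01, -0.01 and -0.01 over all genes. Limma called 0 of the 12 measured apolipoprotein genes against DMSO, where the shares over all genes were 25.7%, 19.8% and 6.52% with OTX015, DW71177 and RVX208: APOA1, APOA2, APOA4, APOA5, APOB, APOC1, APOC3, APOD, APOE, APOF, APOH and APOM. At an unadjusted p under 0.05 the counts were 2, 0 and 2 (APOA4 and APOC1 with OTX015, APOC3 and APOM with RVX208, named after their values were seen), and 0 with DW71374. APOB, APOD and APOH lay below every array median, with highest group means of 3.32, 3.07 and 2.28. APOA2, APOA4, APOC1, APOC3, APOE, APOF and APOM had group means of 4.19 to 5.06, about the level of APOA1. Whether these signals were above background is likewise not shown, which limits what the count of 0 says. The list genes called encode receptors, a transfer protein and a lactonase.

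PLTP encodes the phospholipid transfer protein that remodels high-density lipoprotein. It read 5.69 ± 0.056 in DMSO, 5.68 ± 0.107 with DW71374, 6.11 ± 0.048 with RVX208, 6.28 ± 0.134 with DW71177 and 6.38 ± 0.098 with OTX015. It rose 1.62-, 1.51- and 1.34-fold with OTX015, DW71177 and RVX208 (limma adjusted p = 1.6e-05, 0.0001 and 0.0059), and each call held in all 6 fits without a single array. VLDLR, a receptor for apolipoprotein E-rich particles, read 6.93 ± 0.049 in DMSO and 6.93 ± 0.042 with DW71374. It read 6.24 ± 0.071 with RVX208, 6.27 ± 0.041 with DW71177 and 6.16 ± 0.045 with OTX015. Its falls were 1.71-fold with OTX015, 1.59-fold with DW71177 and 1.62-fold with RVX208 (limma adjusted p = 2.9e-07, 2.4e-06 and 1.6e-05). Unlike THBD and CFD, the RVX208 arrays of VLDLR, at 6.16 to 6.29, fell within the range of the DW71177 and OTX015 arrays together.

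PON2, an intracellular lactonase of the paraoxonase family, fell 1.89-fold with OTX015 and 1.42-fold with DW71177 (limma adjusted p = 1.2e-05 and 0.0028). Its 1.32-fold fall with RVX208 (limma adjusted p = 0.034) was called in 0 of 6 fits without a single array. The scavenger receptor gene CD36 read 3.66 in DMSO, 2.60 with DW71177 and 2.65 with OTX015, all below the array medians, so its called falls of 2.09- and 2.02-fold say little of size. APOBR fell with OTX015 and DW71177 and LRP1 with OTX015, both named after their values were seen. Without single arrays the APOBR call with DW71177 and the LRP1 call each held in 2 of 6 fits. LCAT, which APOA1 activates to esterify cholesterol, differed from DMSO by 0.23 ± 0.10 with OTX015 and by 0.04 ± 0.10 with RVX208, neither called. ABCA1 and SCARB1 were not analysed here.

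**Figure D3:**
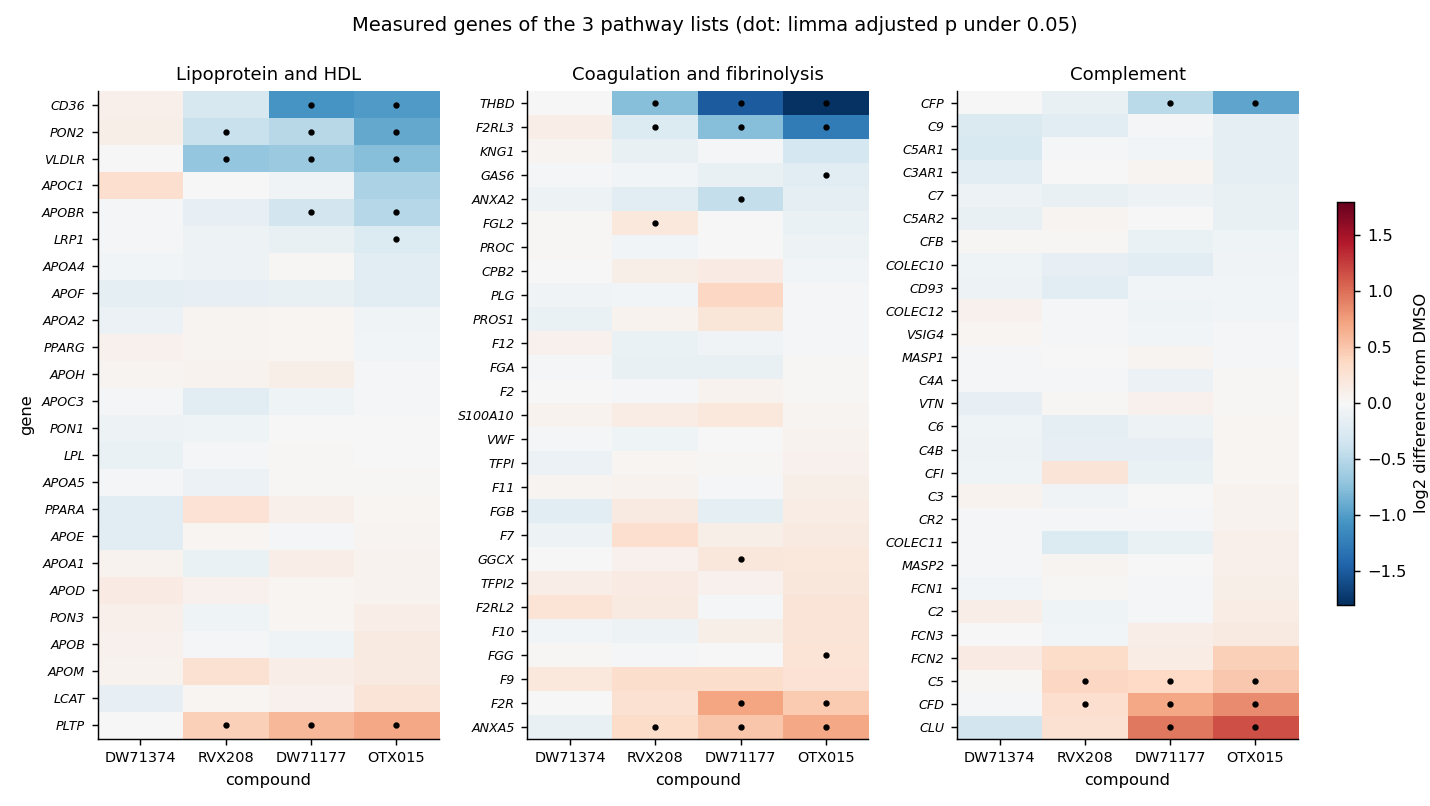
Log2 difference from DMSO (colour, blue lower and red higher) of the 24, 27 and 28 measured genes of the lipoprotein, coagulation and complement lists with each compound, ordered by the OTX015 difference, with a dot where the limma adjusted p was under 0.05. THBD heads the falls and CLU, CFD and C5 the rises of their lists, most rows are pale, and the DW71374 columns hold no dot.

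**Figure D4:**
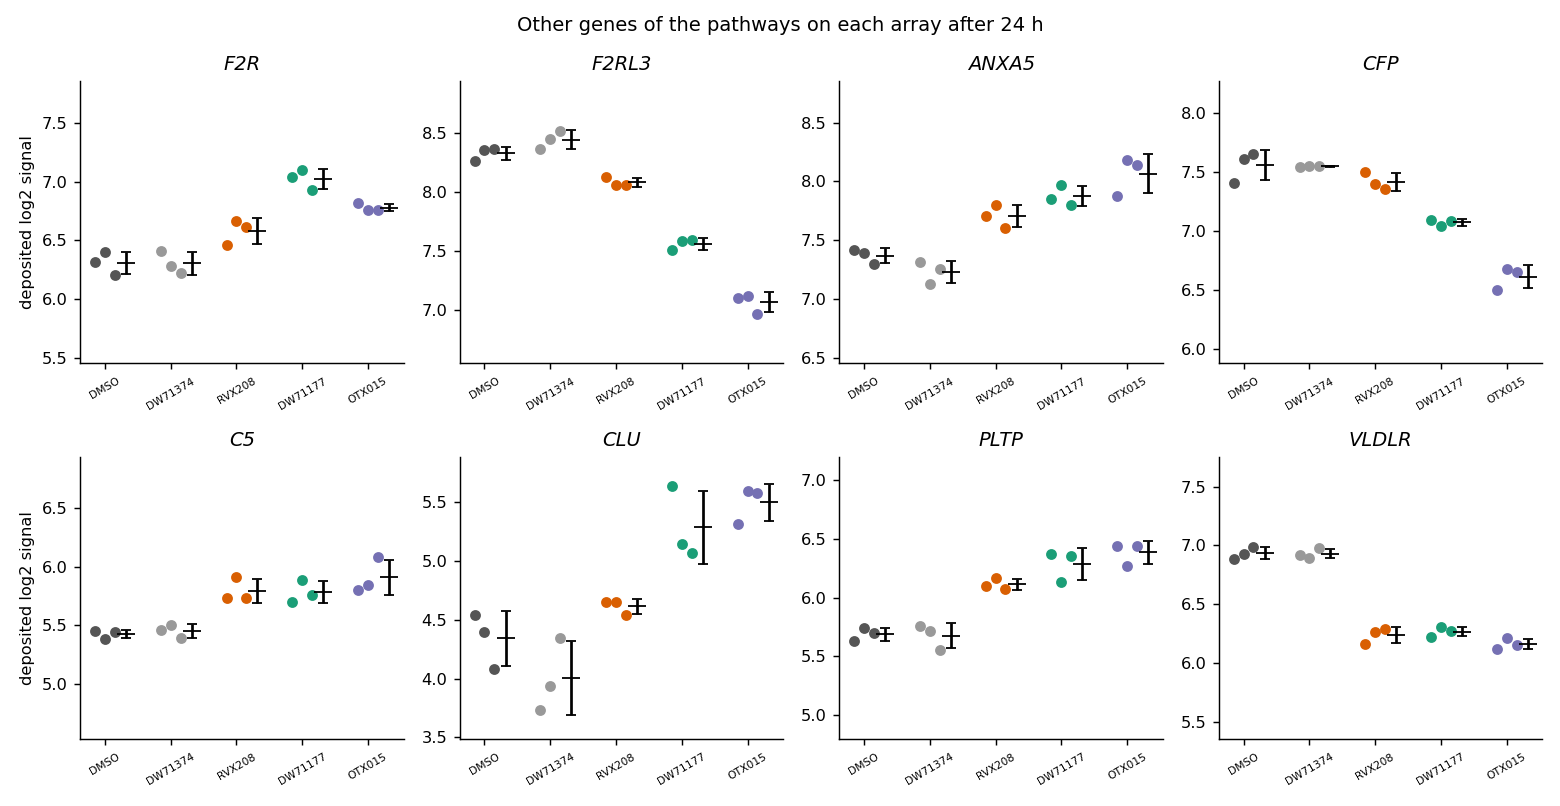
Deposited log2 signal (vertical axis, 2.4 log2 units in each panel) of 8 other pathway genes on the 3 arrays of each group (points), with mean and SD. F2R is highest with DW71177 and F2RL3 and CFP are lowest with OTX015, while VLDLR is at 6.16 to 6.27 on average with RVX208, DW71177 and OTX015 alike.

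The genes most like THBD in pattern, by Pearson's r of log2 signals over the 15 arrays, were DAZAP1, EBP, PLAC8, ATIC and NOP2, at 0.990 to 0.993. PLAC8 changed by a similar amount, at -1.73 with OTX015, -1.35 with DW71177 and -0.76 with RVX208, while the other four changed by -0.83 to -0.69 with OTX015. CAT, XPR1, APLP2, RIOK3 and GATAD2B ran most opposite to THBD, at -0.988 to -0.987. For CFD the nearest were NDRG1, TXNIP, ZYG11B, CLIC4 and IL17RA, at 0.981 to 0.985, and the most opposite DDX21, COLGALT1, IARS1, HSPH1 and TRMT1, at -0.992 to -0.990. TXNIP, a thioredoxin-binding arrestin, rose by 1.62 with OTX015 and the RNA helicase gene DDX21 changed by -0.93. The arrays fall into the treatment groups, so these coefficients describe mostly the order of 5 group means.

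The labelled cell type was checked against markers. Of 12 myeloid markers 8 were measured, with a mean log2 signal of 7.86 to 7.92 over the DMSO arrays, and LYZ at 11.11. This mean was 7.49 to 7.53 with OTX015, 7.54 to 7.57 with DW71177, 7.71 to 7.74 with RVX208 and 7.89 to 7.92 with DW71374. Of the 8 markers, 5 fell and 1 rose with OTX015, 4 and 1 with DW71177, and 3 and 0 with RVX208. Over all genes limma called 14.5% lower and 11.2% higher, 9.88% and 9.95%, and 3.11% and 3.41% with the same compounds. The riser was CD68, while CSF1R, LYZ and MPO fell with each of these compounds. MPO read 4.59 in DMSO, about the level of APOA1. Some myeloid markers thus moved in the same samples as THBD and CFD, and their part in these differences was not tested. Markers of other cell types known for these genes passed no test with any compound, at 0 of 5 hepatocyte, 0 of 3 endothelial and 0 of 3 adipocyte genes. The shares of all genes called either way were 25.7%, 19.8%, 6.52% and 0% with OTX015, DW71177, RVX208 and DW71374. The hepatocyte genes ALB, AFP, TF and FGB lay below every array median, at highest group means of 3.68, 2.35, 3.41 and 3.05, and TTR lay above, at 4.66 to 4.82. The endothelial genes KDR, VWF and TIE1 lay below, at 3.12 to 3.59. Of the adipocyte genes LEP and CIDEC lay below, at 2.89 to 3.22, and PLIN1 above, at 4.17 to 4.35. Of 3 epithelial genes, which averaged 5.11 to 5.37, 0 changed, and lymphoid markers were not analysed here. In DMSO the epithelial genes read 7.74 (KRT18), 5.29 (KRT8) and 2.64 (EPCAM). KRT18 lay below LYZ, CD68 and FLT3 but above the other measured myeloid markers. Replicate arrays correlated at 0.992 to 0.995 across genes.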

How the data were processed

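Total RNA was extracted and labelled as biotinylated sense cDNA for an Affymetrix whole-transcript array, per the labels' protocols. The authors deposited log2 signals of 44629 features. The scale was inferred from the values, and normalization between arrays was inferred from near-identical quartiles. For method, software and build, nothing is given in the sources used here. If the arrays were so normalized, a shift common to all genes is removed. The platform annotation named 15835 features with exactly 1 gene, 0 with several and 28794 with none; the feature of highest mean stood for each of 14812 genes, 651 of which had several.

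Differences were fitted with limma 3.58.1 in R 4.3.3 (lmFit, eBayes defaults) on the 5 group means of all 15 arrays, leaving 10 residual degrees of freedom. Two-sided p-values were Benjamini-Hochberg adjusted over 14812 genes, with calls under 0.05, in 7 comparisons: each compound against DMSO and the 3 pairs at 300 nM. The script was tested on simulated data. The number of arrays limits the precision, and 1 feature reads each of the 3 genes.

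The members and pathway lists were chosen with earlier results of these data known, and lists are described by counts and medians, with no test. Genes named were the members, their direct partners, up to 4 called genes per list and comparison with DMSO (smallest p), and the 5 genes most and least correlated with each called member; others are marked where named. Promoter sequences are from RefSeq (GRCh38.p14), where 1 of the 3 genes matched.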

Additional observations from a re-analysis of the deposited data

How the results depend on the processing

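Alternatives were quantile normalization, equalised array medians, genes with a mean of at least 5, mean of features, a trended robust variance, array weights, the 2 compared groups alone, all features tested and a replicate block. Under these the THBD differences from DMSO ranged from -1.78 to -1.73 with OTX015, -1.51 to -1.49 with DW71177 and -0.77 to -0.74 with RVX208, all called. APOA1 was called under none of those that kept it; the filter on the mean removed it. CFD with RVX208 was 0.30 and not called (adjusted p = 0.058) in the 2 groups alone, and THBD between DW71177 and OTX015 was 0.28 and called (adjusted p = 0.0497) among genes with a mean of at least 5. An exact two-sided permutation test of 3 against 3 arrays cannot go below p = 0.1, the value reached by each called difference: THBD at -1.78, -1.50 and -0.77 against DMSO, 1.79 for DW71374 against OTX015 and -1.51 for DW71177 against DW71374, and CFD at 0.86, 0.70, 0.30, -0.87 and 0.72 in the same order. These lost calls come from the test's size. Any 3 and 3 arrays that do not overlap reach this value, so it does not mark the called differences. The uncalled differences between DW71177 and OTX015, 0.28 for THBD and -0.15 for CFD, reach it too.

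Leaving out single arrays gave CFD with RVX208 at 0.25 to 0.33, THBD with OTX015 at -1.84 to -1.70, with DW71177 at -1.57 to -1.44 and with RVX208 at -0.83 to -0.73. The RVX208 counts of changed coagulation and complement genes, 4 and 2, ranged from 1 to 2 each without single arrays. Both were 1 in the 2 groups alone, and the coagulation count was 1 with all features tested and with the replicate block. The labels do not say whether same-numbered arrays were prepared together. Across genes, their deviations from their group means correlated at -0.087 to 0.098 over 30 pairs, which describes the values and not the preparation. The replicate block changed no call of THBD, CFD or APOA1. Genes called with RVX208 over the whole array numbered 966, against 609 in the 2 groups alone, 564 to 636 without single arrays, 1576 among genes with a mean of at least 5 and 1485 with the trended variance. DW71177 against OTX015 gave 186, against 1 in the 2 groups alone, as few as 71 without a single array, 593 among genes with a mean of at least 5, 497 with the trended variance, 79 with all features, 118 with array weights and 107 with the replicate block. With all features, OTX015 gave 5872 against 3800 from DMSO and 5604 against 3730 from DW71374. These counts have unlike totals, 44629 features against 14812 genes, so they do not show a larger share called. The counts among genes with a mean of at least 5 likewise come from a smaller total. The causes were not tested. No slide or scan batch was given. Dim signals limit APOA1, APOA2, APOA4, APOB, APOC1, APOC3, APOD, APOE, APOF, APOH, APOM, LRP1, CD36, CLU, CFB, C3, FGG, F2RL2, PROC and MPO.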
